A study of Homo sapiens with 15 samples.

Results

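YAP and TAZ are transcriptional coactivators at the end of the Hippo pathway, and the 8 genes described here encode these coactivators and the factors with which they share DNA. They are YAP1, WWTR1 (the gene of TAZ), TEAD1, TEAD2, TEAD3, TEAD4, VGLL3 and VGLL4. The genes were taken from the count table by their symbols, with no threshold on their values, and all 8 were found among the 18858 genes of the count table. RNA came from MDA-MB-231, an established line of human breast cancer cells, in 5 groups of 3 libraries. Control cells received no transfection. The siControl cells received non-targeting siRNA, the siYAP cells 4 pooled siRNAs that target YAP1, the siTAZ cells 4 that target WWTR1, and the siYAP+TAZ cells both pools, in each case for 48 h before the cells were placed on gelatin for 5 to 6 h. Cells of every group were kept on gelatin, and none carries a stable genetic change made for the study. As each pool was given at the same concentration, the siYAP+TAZ cells received more siRNA in total than the single knockdowns, and the amount of siRNA cannot be told apart from the co-knockdown.

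Neither YAP nor TAZ binds DNA by itself. Both enter the nucleus when the LATS kinases do not phosphorylate them, and they are then carried to DNA mainly by the TEAD proteins, a family of transcription factors with one shared type of DNA-binding domain. The vestigial-like proteins bind the TEADs as well. VGLL4 occupies the surface that YAP and TAZ use and is known as a competitor that lowers the activity of their target genes, and VGLL3 is a further TEAD cofactor. The comparisons address whether the RNA of the factors that were not targeted, or of the coactivator that was not targeted, changes when YAP, TAZ or both are lowered.

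The siRNAs are shown first because every comparison rests on them and because they show what else among the 8 genes they could pair with. The sense strand of each is printed 5′ to 3′. The capitals mark bases 12 to 18, which equal a site that pairs with the seed (bases 2 to 8) of the guide strand.
siControl: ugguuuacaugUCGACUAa
siYAP siRNA 1: gcaccuaucacUCUCGAGa
siYAP siRNA 2: gaacauagaagGAGAGGAg
siYAP siRNA 3: ccaccaagcuaGAUAAAGa
siYAP siRNA 4: ggucagagauaCUUCUUAa
siTAZ siRNA 1: aagccuagcucGUGGCGGa
siTAZ siRNA 2: aggaacaaacgUUGACUUa
siTAZ siRNA 3: ggacaaacaccCAUGAACa
siTAZ siRNA 4: gacaugagaucCAUCACUa

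In the GENCODE release 44 transcripts of GRCh38, all 4 siYAP siRNAs matched the coding sequence of YAP1 on the plus strand of chromosome 11. siRNA 4 lay in exon 2 (chr11:102114375-102114393), siRNA 1 in exon 8 (chr11:102227471-102227489), and siRNAs 2 and 3 in exon 9, the last exon (chr11:102229814-102229832 and chr11:102229900-102229918). The 4 siTAZ siRNAs matched the coding sequence of WWTR1 on the minus strand of chromosome 3, siRNA 1 in exon 2 (chr3:149657174-149657192), siRNA 4 in exon 5 (chr3:149527864-149527882) and siRNAs 3 and 2 in exon 7, the last exon (chr3:149520960-149520978 and chr3:149520895-149520913). siYAP siRNAs 1 and 4 also matched YAP1P1, a pseudogene of YAP1. The control sequence shown matched no transcript, and whether the control pool holds further sequences is not known here. No siRNA matched another of the 8 genes over its whole length, and the longest run that one shared with another of them was 13 bases, between siYAP siRNA 3 and TEAD1.

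Seed matches were more widespread. In the 3′ untranslated regions of the canonical transcripts, VGLL4 held the site of none of the 8 targeting siRNAs and TEAD4 that of 1 siYAP siRNA. TEAD1 held the sites of 2 siYAP and 2 siTAZ siRNAs, TEAD2 those of 2 and 1, TEAD3 those of 2 and 0, and VGLL3 those of 2 and 3. WWTR1 held the sites of 3 siYAP siRNAs and YAP1 that of no siTAZ siRNA. Among all 19516 genes with such a region, a single targeting siRNA had its site in 2.07% to 15.8%, so a match in a long region is common. Their part in the changes below was not tested.

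The libraries held between 18696737 and 30107312 counted reads each, and all values below are normalized counts, that is, reads scaled to the same effective library size, unless levels per length are named. The labelled cell line fits its expression: VIM, CD44 and AXL had siControl means of 28898, 20818 and 36761 normalized counts. Of the genes listed as low in this line, PGR did not pass 8.32 in any library, whereas ERBB2 and EPCAM had siControl means of 2453 and 342. Of markers of other cell types, PTPRC and LUM stayed at or under 7.2, and ESR1, CDH1, DCN, CDH5 and KRT5 were not analysed here. Whether strand was used in counting is not stated, so reads of a gene cannot be told apart from those of a gene that overlaps it on the opposite strand. P-values measure the spread between these libraries.

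The silenced genes were lowered to different extents. YAP1 in the 3 siYAP libraries stood at 23.4%, 64.0% and 17.6% of the siControl mean, and in the siYAP+TAZ libraries at 51.8%, 51.0% and 41.5%. WWTR1 stood at 45.8%, 14.1% and 28.8% in the siTAZ libraries and at 62.7%, 62.1% and 71.0% in the siYAP+TAZ libraries. For both genes all libraries that received its pool lay below all siControl libraries. As whole cultures were measured, fewer cells with a transcript and less of it per cell cannot be told apart. WWTR1 remained higher in every siYAP+TAZ library than in any siTAZ library, by 1.13 on the log2 scale (SE 0.31), with an adjusted p of 0.065 in edgeR, the model used for all tests here, and of 0.0069 in DESeq2. Without siTAZ library 19 the difference was 1.61 (adjusted p = 0.0059) and without siTAZ library 24 it was 0.81 (adjusted p = 0.042). In the main edgeR fit (all libraries, robust estimation, no block) only WWTR1 in siTAZ was called, at an adjusted p of at most 0.05 over all genes (log2 fold change -1.74, SE 0.31, adjusted p = 0.019). This call was lost in 3 of 6 fits that each left out 1 library (adjusted p 0.0667 without siControl library 17, 0.0734 without siControl library 22 and 0.0712 without siTAZ library 29). YAP1 missed the threshold in siYAP (-1.51, SE 0.37, adjusted p = 0.099) and in siYAP+TAZ (-1.06, SE 0.37, adjusted p = 0.072). DESeq2 called both (adjusted p 0.0094 and 0.038), as did edgeR without robust estimation (0.023 and 0.019). In siYAP, YAP1 was also called by limma-voom (adjusted p = 0.046) and by edgeR with consecutive library numbers as a block (adjusted p = 0.039). WWTR1 in siYAP+TAZ was not called (-0.62, SE 0.30, interval -1.28 to 0.05, edgeR adjusted p = 0.20), nor was it by DESeq2. With only the groups compared in the fit, edgeR called both YAP1 (-1.05, adjusted p = 2.13e-05) and WWTR1 (-0.61, adjusted p = 0.0010) in siYAP+TAZ but no longer WWTR1 in siTAZ (-1.75, adjusted p = 0.17). Without siYAP library 23, the library at 64.0%, edgeR called YAP1 in siYAP at -2.27 (adjusted p = 3.29e-08) and between siYAP+TAZ and siYAP at 1.22 (adjusted p = 6.31e-05).

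Neither coactivator gene rose detectably when the other was silenced. YAP1 in the siTAZ libraries had 4996, 4390 and 4393 normalized counts against 4431, 4333 and 4202 in siControl. The difference was 0.09 on the log2 scale, with a 95% interval from -0.71 to 0.88. WWTR1 in the siYAP libraries had 1956, 1423 and 2001 against 1995, 1850 and 1579, a difference of -0.01 with an interval from -0.67 to 0.64. The groups overlapped for WWTR1. For YAP1, 1 siTAZ library stood above all siControl libraries and the others lay within their range. Changes of about 1.5-fold in either direction lie within these intervals.

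Among the 6 genes that no pool targeted, VGLL4 rose in all 3 knockdown groups, TEAD2 rose and TEAD4 and TEAD1 fell in siYAP+TAZ, and TEAD3 and VGLL3 were not called. In siYAP 1 of the 6 was called, in siTAZ 1 and in siYAP+TAZ 4, where 0.933%, 2.03% and 18.4% of all genes were called. None of the changes reached an absolute log2 fold change of 1. The 3 knockdown groups share the siControl libraries, so their differences from siControl are not independent of each other. Where the libraries of a group are said to lie above or below those of another, the share of all genes that separate likewise is not given here. In siControl against untransfected cells 0 of the 6 were called by edgeR, DESeq2 or limma-voom, as were 0% of all genes, and 0 of the 6 had an unadjusted p under 0.05 (398 of all genes did). The intervals of these 6 differences for transfection itself lay within -0.27 to 0.32 on the log2 scale for the TEAD genes, within -0.16 to 0.16 for VGLL4 and within -0.51 to 0.50 for VGLL3.

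**Figure D1:**
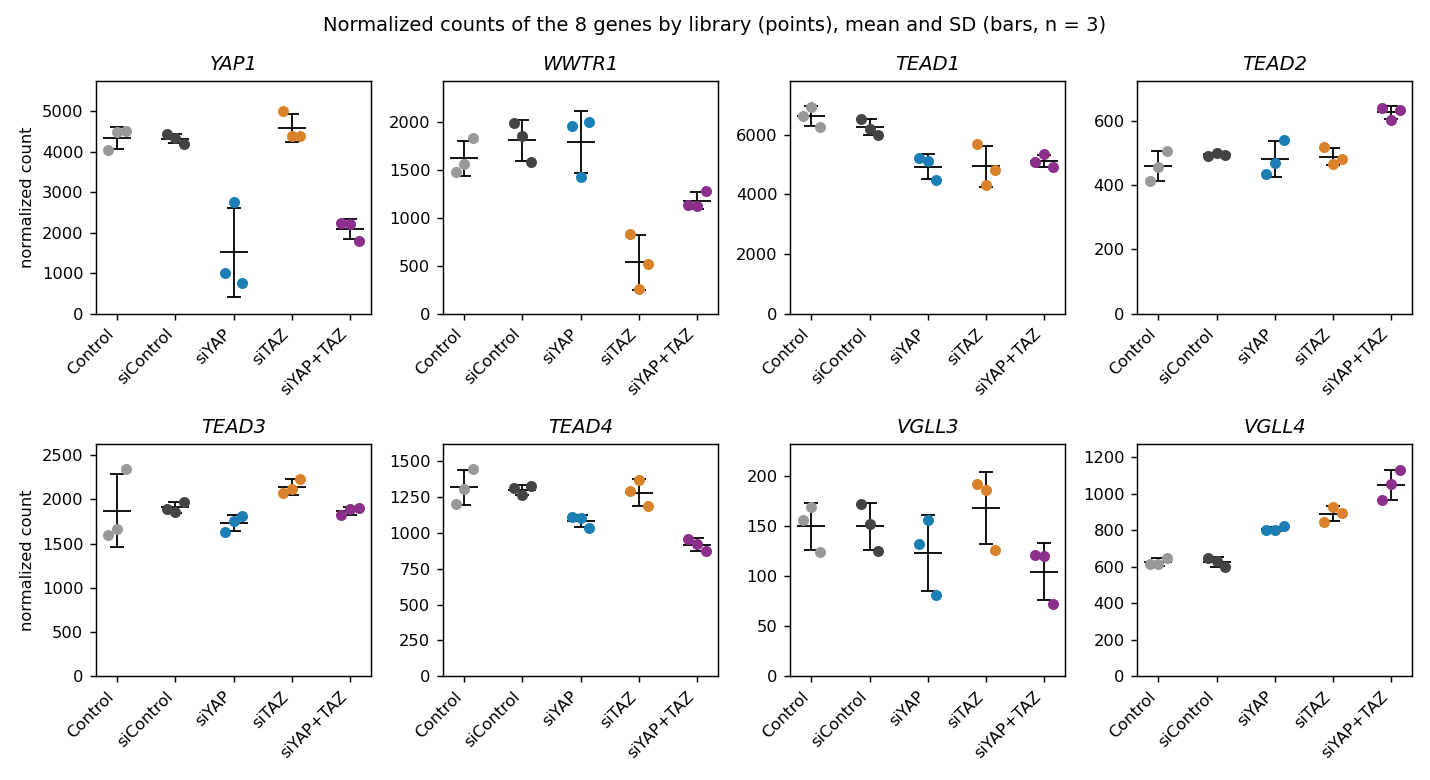
Normalized counts (vertical axis, from 0) of the 8 genes in each of the 15 libraries, by group, with the mean and SD of 3 libraries as bars. VGLL4 lies between 596 and 650 in the Control and siControl libraries and between 800 and 1130 in the knockdown libraries, while TEAD4 is lowest in siYAP+TAZ and TEAD2 is highest there.

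VGLL4, the competitor of YAP and TAZ on the TEADs, had 649, 630 and 596 normalized counts in siControl and 613, 614 and 650 in Control. It had 802, 800 and 822 in siYAP, 845, 927 and 896 in siTAZ, and 963, 1051 and 1130 in siYAP+TAZ. Every knockdown library lay above every control library, and the siYAP+TAZ libraries lay above all others. Against siControl, VGLL4 was 1.29-fold higher in siYAP (log2 fold change 0.37, SE 0.08, edgeR adjusted p = 0.025), 1.42-fold in siTAZ (0.51, SE 0.08, adjusted p = 0.0037) and 1.68-fold in siYAP+TAZ (0.75, SE 0.08, adjusted p = 3.49e-06). Co-knockdown exceeded siYAP by 0.38 (SE 0.08, adjusted p = 0.0064) and siTAZ by 0.24 (SE 0.08, adjusted p = 0.074), the second of which was not called by edgeR but was by DESeq2 (adjusted p = 0.034), with the block (0.022), and in edgeR with the filterByExpr filter (0.048) or library size scaling (0.047). The single knockdowns did not differ in VGLL4 by the test (-0.14, interval -0.30 to 0.02). The interaction of siYAP and siTAZ, that is, how far the co-knockdown lay from both single log2 fold changes added up, was -0.13 with an interval from -0.36 to 0.09. The rises in siTAZ and siYAP+TAZ were called in all 6 fits that each left out 1 library. The rise in siYAP was called in only 1 of 6 such fits, with adjusted p between 0.0443 and 0.103, and was lost without siControl library 17, 22 or 27 and without siYAP library 18 or 28.

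VGLL4 lies on the minus strand at chr3:11556069-11771350 in GRCh38, and 23.8% of its exonic bases lie opposite exons of ATG7 or of an unnamed gene. ATG7, an autophagy gene with a siControl mean of 445 normalized counts, differed by -0.06 on the log2 scale in siYAP+TAZ (SE 0.09, edgeR adjusted p = 0.72). At most 0.504% of the 50-base stretches of VGLL4 occur in another gene.

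TEAD4, a DNA-binding partner of YAP and TAZ, had 1317, 1263 and 1330 normalized counts in siControl and 961, 923 and 872 in siYAP+TAZ. It had 1109, 1108 and 1034 in siYAP and 1293, 1370 and 1186 in siTAZ. The siYAP+TAZ libraries lay below all others and the siYAP libraries below all siControl libraries, whereas siTAZ overlapped siControl. TEAD4 fell by 29.6% in siYAP+TAZ (log2 fold change -0.51, SE 0.08, edgeR adjusted p = 0.000224), a call made in all 6 fits without 1 library. The change was -0.27 in siYAP (SE 0.08, adjusted p = 0.13) and -0.02 in siTAZ (interval -0.19 to 0.14). TEAD4 was lower in siYAP+TAZ than in siTAZ by the direct test (-0.48, SE 0.08, adjusted p = 0.0018), but the difference from siYAP (-0.24, SE 0.08, adjusted p = 0.093) and that between the single knockdowns (-0.24, SE 0.08, adjusted p = 0.17) were not called. With consecutive library numbers as a block, TEAD4 was called in siYAP (-0.27, adjusted p = 0.024) and between siYAP+TAZ and siYAP (-0.24, adjusted p = 0.026). TEAD4 lies at chr12:2959330-3040676, and no annotated exon lies opposite to its exons.

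TEAD1 (chr11:12674421-12944737), the TEAD gene with the most reads in every group, had 6535, 6192 and 6003 normalized counts in siControl. It had 5209, 5117 and 4467 in siYAP, 5686, 4303 and 4814 in siTAZ, and 5083, 5341 and 4919 in siYAP+TAZ. All 9 knockdown libraries lay below all siControl and Control libraries, with no order among the knockdown groups. The log2 fold changes were -0.34 in siYAP (SE 0.09, edgeR adjusted p = 0.079), -0.34 in siTAZ (SE 0.09, adjusted p = 0.055) and -0.29 in siYAP+TAZ (SE 0.09, adjusted p = 0.030). Only the last was called, although its unadjusted p of 0.0046 was larger than those of siYAP (0.0012) and siTAZ (0.0013), since the adjustment is less strict where more of all genes pass. DESeq2 called TEAD1 in the single knockdowns too, at adjusted p of 0.038 in siYAP and 0.021 in siTAZ, as did edgeR with the block (0.0022 and 0.0015). Without the block, edgeR called it in siTAZ when siTAZ library 19 was left out (-0.45, adjusted p = 0.0057). The siYAP+TAZ call held in 2 of 6 fits without 1 library and was lost without siControl library 17 or 22 and without siYAP+TAZ library 20 or 30. It was also lost when counts were scaled by library size alone (-0.24, adjusted p = 0.086). Co-knockdown did not differ from siYAP (0.05, interval -0.14 to 0.24) or siTAZ (0.05, interval -0.14 to 0.24) in TEAD1 by the test.

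TEAD2 was the TEAD gene that rose. It had 492, 498 and 495 normalized counts in siControl, and 641, 603 and 633 in siYAP+TAZ. It had 434, 467 and 541 in siYAP and 517, 465 and 482 in siTAZ. The siYAP+TAZ libraries lay above all others, and the single knockdowns overlapped siControl. TEAD2 was 1.26-fold higher in siYAP+TAZ (log2 fold change 0.34, SE 0.09, edgeR adjusted p = 0.017), against -0.04 in siYAP (interval -0.24 to 0.16) and -0.02 in siTAZ (interval -0.22 to 0.18). It was higher in siYAP+TAZ than in siYAP (0.38, SE 0.09, adjusted p = 0.024) and than in siTAZ (0.36, SE 0.10, adjusted p = 0.035), but each of these calls held in only 1 of 6 fits without 1 library. The first held only without siYAP library 28 and the second only without siTAZ library 19, with adjusted p of up to 0.136 and 0.114. Its interaction was 0.40 (interval 0.12 to 0.68, adjusted p = 0.66), which was not called. The rise over siControl was lost without siYAP+TAZ library 20 (adjusted p = 0.059) or siControl library 22 (adjusted p = 0.0501). Of the exonic bases of TEAD2 (chr19:49340595-49362457), 10.7% lie opposite CD37, which had 0 to 12 reads per library and was itself called in siYAP+TAZ (log2 fold change 2.15, SE 0.71, edgeR adjusted p = 0.041). TEAD2 had 539 to 690 reads in the siYAP+TAZ libraries.

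TEAD3 (chr6:35473597-35497079), also a DNA-binding partner of the coactivators, showed no call in any comparison, in edgeR or in DESeq2 and limma-voom. It had 1892, 1862 and 1976 normalized counts in siControl, 1629, 1757 and 1812 in siYAP, 2068, 2117 and 2237 in siTAZ and 1820, 1888 and 1909 in siYAP+TAZ. All siYAP libraries lay below and all siTAZ libraries above the siControl range, while siYAP+TAZ overlapped it. The log2 fold changes were -0.14 (interval -0.36 to 0.08), 0.16 (interval -0.05 to 0.38) and -0.03 (interval -0.25 to 0.19). The siYAP and siTAZ groups differed by -0.31 (SE 0.10), with an edgeR adjusted p of 0.19, or 0.014 with consecutive library numbers as a block. One Control library, number 26, stood at 2347, above all other libraries.

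VGLL3 (chr3:86876388-86991149), the other vestigial-like cofactor, had few reads. It had 172, 152 and 124 normalized counts in siControl, 132, 156 and 81.1 in siYAP, 192, 185 and 126 in siTAZ and 121, 120 and 71.6 in siYAP+TAZ. The siYAP+TAZ libraries lay below all siControl libraries, and the single knockdowns overlapped them. The change in siYAP+TAZ was -0.53 (SE 0.24, edgeR adjusted p = 0.15), that in siYAP -0.27 (interval -0.77 to 0.23) and that in siTAZ 0.17 (interval -0.33 to 0.67). Fits that each left out 1 library gave -0.65 to -0.30 in siYAP+TAZ, -0.46 to -0.06 in siYAP and 0.06 to 0.33 in siTAZ. The fit with consecutive library numbers as a block gave an adjusted p of 0.0035 for siYAP+TAZ. Between siYAP+TAZ and siTAZ the difference was -0.70, with an edgeR adjusted p of 0.11, or 0.00068 with the block.

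**Figure D2:**
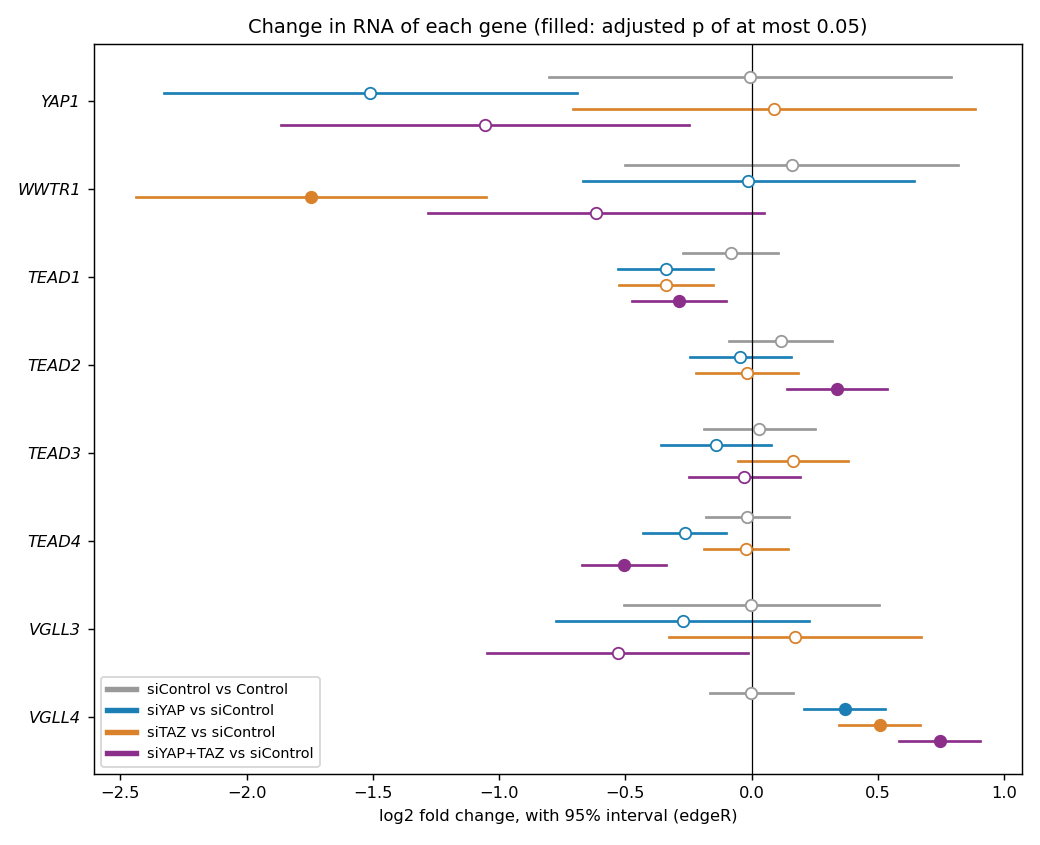
Log2 fold change of each gene (points) with its 95% interval (bars) from edgeR in siControl against Control and in each knockdown against siControl. Filled points have an adjusted p of at most 0.05; of the genes not targeted, VGLL4 is filled in all 3 knockdowns, reaching 0.75 in siYAP+TAZ, and TEAD1, TEAD2 and TEAD4 are filled in siYAP+TAZ.

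In direct comparisons of the knockdown groups, 2 of the 6 untargeted genes (VGLL4 and TEAD2) were called between siYAP+TAZ and siYAP, where 5.13% of all genes were called. Between siYAP+TAZ and siTAZ 2 were called (TEAD4 and TEAD2), with 5.44% of all genes. With consecutive library numbers as a block, edgeR also called VGLL3 (-0.70, adjusted p = 0.00068) and VGLL4 (0.24, adjusted p = 0.022) there. Between siYAP and siTAZ 0 of the 6 were called by edgeR, DESeq2 or limma-voom, with 0.642% of all genes by edgeR, and 2 (TEAD3 and TEAD4) had an unadjusted p under 0.05, as did 2576 of all 18858 genes. With consecutive library numbers as a block, 3 of the 6 were lower in siYAP than in siTAZ, namely TEAD3 (-0.31, adjusted p = 0.014), TEAD4 (-0.24, adjusted p = 0.039) and VGLL3 (-0.45, adjusted p = 0.031). The share of all genes called with the block is not given here, so its calls cannot be set beside that share. The interaction was called for 0 of the 6 by any of these tools and for 0.0106% of all genes by edgeR, with 2 of the 6 (TEAD1 and TEAD2) at an unadjusted p under 0.05, beside 1104 of all genes. Whether losing YAP and losing TAZ differ for TEAD3, TEAD4 and VGLL3 thus depends on the block.

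Levels can be compared between genes only per length, and counts divided by exon length and library size (RPKM) were computed for this. In siControl, YAP1 had the highest level, at 29.0 ± 0.77 RPKM (SD, n = 3), followed by TEAD3 at 26.5 ± 0.82, TEAD1 at 24.7 ± 1.06 and TEAD4 at 24.2 ± 0.66. WWTR1 stood at 9.16 ± 1.07 RPKM, TEAD2 at 7.02 ± 0.048, VGLL4 at 3.67 ± 0.16 and VGLL3 at 0.496 ± 0.079. TEAD1 and TEAD4 overlapped across libraries, and every other pair of neighbours was separated. The order rests on the length used: with the longest transcript in place of all exons, TEAD4 (32.2 RPKM) came next after YAP1, and TEAD3 (27.1) lay below TEAD1 (28.0). In siYAP+TAZ, TEAD3 (26.0 ± 0.64), TEAD1 (20.2 ± 0.84) and TEAD4 (17.1 ± 0.83) all stood above YAP1 (13.9 ± 1.65). VGLL4 (6.16 ± 0.49) there overlapped WWTR1 (5.97 ± 0.46), from which it was separated in siControl. This overlap also rests on the length used: with the longest transcript, VGLL4 (10.79, 11.77 and 12.65 RPKM) lay above WWTR1 (9.51, 9.43 and 10.78).

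**Figure D3:**
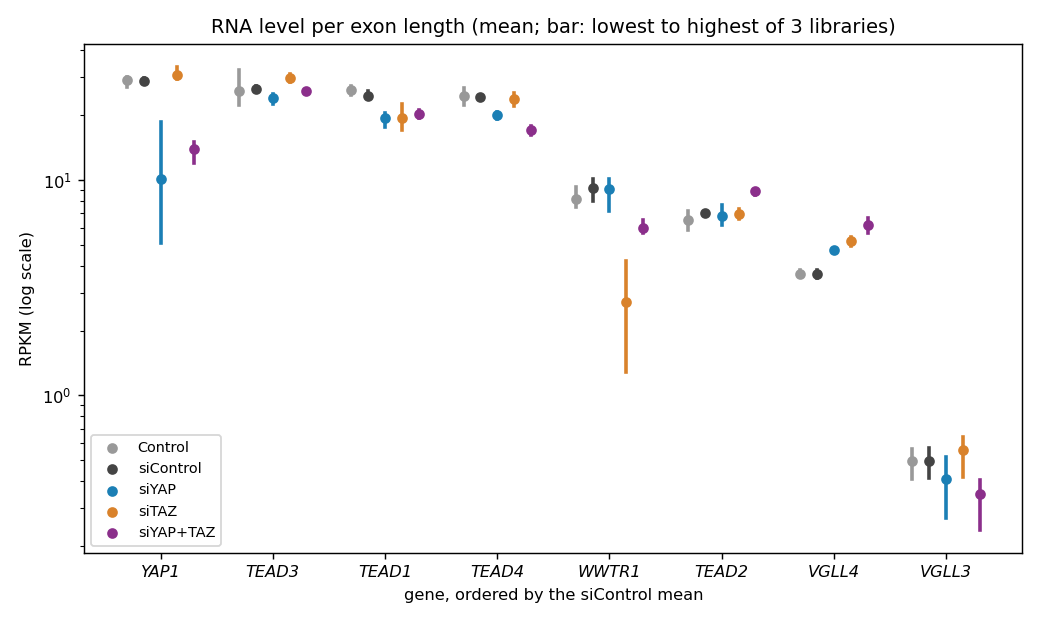
RNA level per exon length (RPKM, log axis) of the 8 genes in the 5 groups, as the mean (points) and the range of 3 libraries (bars), ordered by the siControl mean. TEAD3, TEAD1 and TEAD4 lie between 24.2 and 26.5 RPKM in siControl, and VGLL3 is lowest in every group.

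The makeup of the TEAD RNA was described from the same levels, without a test. The summed level of the 4 TEAD genes was 82.4 ± 1.39 RPKM in siControl, 80.0 ± 2.24 in siTAZ, 70.5 ± 1.16 in siYAP and 72.1 ± 0.96 in siYAP+TAZ (SD, n = 3). The siYAP and siYAP+TAZ libraries lay below all others. TEAD4 made up 29.4% of the sum in siControl and 23.7% in siYAP+TAZ, and TEAD2 8.52% and 12.3%. TEAD1 held 29.9% in siControl, 24.3% in siTAZ and 28.0% in siYAP+TAZ. TEAD3 held 32.1% in siControl, 37.2% in siTAZ and 36.0% in siYAP+TAZ.

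The level of both coactivator genes together, likewise given without a test, was lowest in siYAP and siYAP+TAZ. YAP1 and WWTR1 summed to 38.1 ± 1.84 RPKM in siControl, 33.5 ± 3.69 in siTAZ, 19.2 ± 5.69 in siYAP and 19.9 ± 1.20 in siYAP+TAZ. YAP1 held 76.0% of this sum in siControl, 92.2% in siTAZ, 48.7% in siYAP and 69.8% in siYAP+TAZ. The ratio of VGLL4 to the sum was 0.0963 ± 0.00056 in siControl, 0.158 ± 0.023 in siTAZ, 0.261 ± 0.070 in siYAP and 0.311 ± 0.043 in siYAP+TAZ. Its denominator holds the siRNA targets, so part of its rise is fixed by the knockdown. The ratio of VGLL4 to the summed TEAD level, in which no gene was targeted, was 0.0446 ± 0.0020 in siControl, 0.0673 ± 0.0019 in siYAP, 0.0654 ± 0.0048 in siTAZ and 0.0854 ± 0.0076 in siYAP+TAZ. VGLL4 was higher in each siTAZ library than in any siYAP library, a difference that did not pass the test above. The sum of YAP1 and WWTR1 was also higher in each siTAZ library, and a relation between VGLL4 and this sum was not tested. RNA levels say nothing of the amounts of the proteins.

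**Figure D4:**
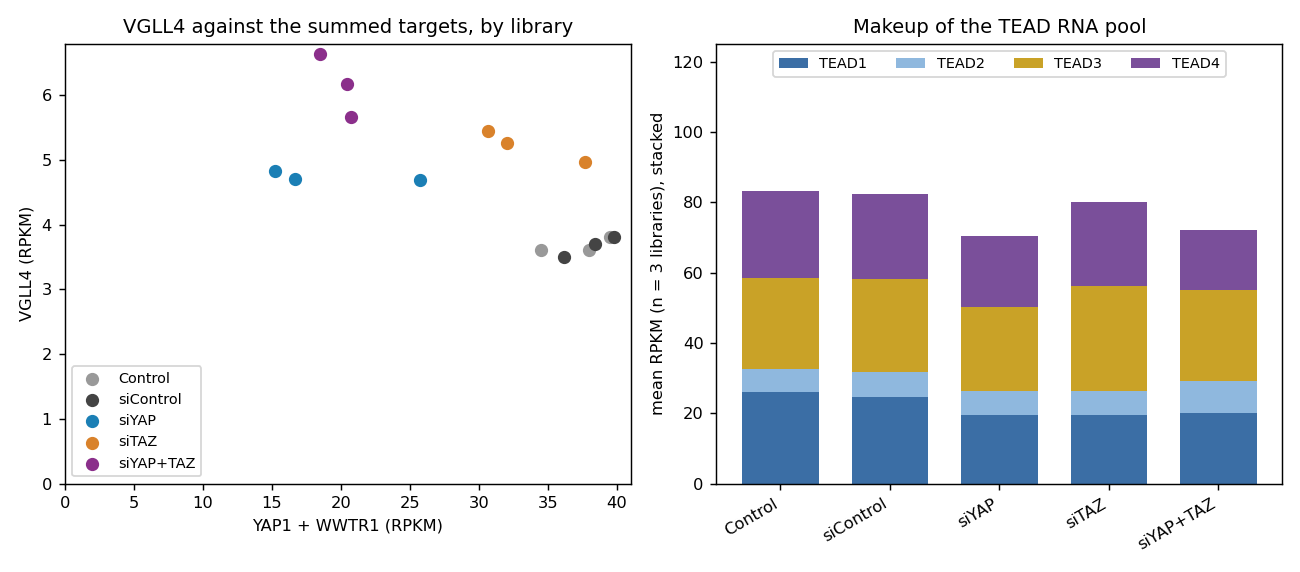
Left: VGLL4 level against the summed level of YAP1 and WWTR1, both in RPKM, with 1 point per library. Right: mean RPKM of the 4 TEAD genes, stacked, by group (n = 3). The siYAP+TAZ libraries combine the highest VGLL4 with 18.5 to 20.7 RPKM of YAP1 and WWTR1, and the stacked sum drops from 82.4 in siControl to 72.1 in siYAP+TAZ.

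The other genes of the pathway changed as follows. Of 26 upstream Hippo kinases, adaptors and scaffolds, 2 rose and 8 fell in siYAP+TAZ, where 18.4% of all genes were called, and their median log2 fold change was -0.15 against about 0 over all genes. NF2 (-0.73, SE 0.13), which recruits the LATS kinases to the membrane, and LATS2 (-0.50, SE 0.09), one of these kinases, were among those that fell. In siYAP, where 0.933% of all genes were called, 5 fell, and in siTAZ, where 2.03% were called, 1 rose (AMOTL1) and 1 fell (WWC2). None of the 26 reached an absolute log2 fold change of 1 in siYAP+TAZ, while WTIP, a LIM-domain gene related to AJUBA, did so in siYAP (-1.10, SE 0.19, edgeR adjusted p = 0.016). Of 22 genes known as YAP and TAZ targets, 14 fell and 1 (NT5E) rose in siYAP+TAZ, with a median of -0.60. ANKRD1 (-1.36, SE 0.36, edgeR adjusted p = 0.023), CCN1 (-1.17, SE 0.12, adjusted p = 8.37e-06) and F3 (-1.02, SE 0.16, adjusted p = 0.000474) fell beyond a log2 fold change of 1. In siYAP 5 of the 22 fell and in siTAZ 4, beside the same 0.933% and 2.03% of all genes. AMOTL2, LATS2 and PTPN14 are counted in both lists.

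Of 18 other vestigial-like genes and other partners of YAP or TAZ at DNA, 13 were measured, and 4 were called in siYAP+TAZ, beside 18.4% of all genes, with a median of 0.13. All 4 rose. They were PAX8 (0.73, SE 0.20), CTNNB1 (0.44, SE 0.09), RUNX2 (0.39, SE 0.11) and SMAD3 (0.32, SE 0.09), named after their values were seen. CTNNB1 encodes the beta-catenin of Wnt signalling, SMAD3 a signal carrier of TGF-beta, and RUNX2 and PAX8 encode transcription factors. In siTAZ PAX8 rose (0.83, SE 0.20, edgeR adjusted p = 0.039) and no other of the 13 was called, beside 2.03% of all genes.

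The pattern of each of the 8 genes over the 15 libraries was set beside that of 10640 well-expressed genes by Pearson's r of log2 CPM, as a description. The libraries share the knockdown groups, so genes with group differences correlate. VGLL4 was most like RGS3 (r = 0.98), PRICKLE2 (0.97) and REEP2 (0.97). TEAD1 was most like HAS2 (0.97), which encodes a hyaluronan synthase, EPS8L2 (0.97) and the YAP/TAZ target ANKRD1 (0.96). TEAD4 was most like CPSF7 (0.96), AMOTL2 (0.95), another YAP/TAZ target, and CHCHD4 (0.94). TEAD2 had lower values, at 0.92 for TUBGCP2, 0.91 for BCORL1 and 0.90 for KIF3C, and TEAD3 likewise, at 0.91 for ZFR and 0.90 for USF2 and PDE10A. VGLL3 was most like GALNT14 (0.94), IGFBPL1 (0.93) and ATF4 (0.92). YAP1 was most like SYS1 (0.96), ARL6IP1 (0.94) and SETD3 (0.94), and WWTR1 most like VAPA (0.96), SUPT6H (0.94) and VMA21 (0.94).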

How the data were processed

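Single reads of polyadenylated RNA were sequenced by the authors, who aligned them to GRCh38 with STAR 2.4.2a and deposited raw counts per gene, the only values used here. Normalized and rlog values and the authors' fold changes and p-values were not used. Libraries were grouped by their titles, and all 15 were kept. After TMM scaling, 18858 genes were fitted with the quasi-likelihood method of edgeR 4.0.16 (R 4.3.3, robust, 1 coefficient per group, no block), and p-values were adjusted by Benjamini-Hochberg over all genes. A gene was called at an adjusted p of at most 0.05. The test was first run on simulated counts. RPKM used the union of GENCODE release 44 exons, and VGLL3, the gene with the fewest reads, had 78 to 223 per library.

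Alternatives were DESeq2 1.42.0, limma-voom (limma 3.58.1), 2 filters on low counts, other scalings, no robust estimation, consecutive library numbers as a block, only the groups compared, Control as the reference, the fold threshold of the methods (absolute log2 fold change of at least 1) and leaving out each library. The genes and lists were chosen with earlier results of these data known. Named are the 8 genes, list genes past both thresholds in siYAP+TAZ (at most 4 per list) and, for each of the 8, the 3 genes most alike by correlation among those that average 100 normalized counts or more. NF2, LATS2, NT5E, AMOTL1, WWC2, WTIP, PTPN14 and the 4 other partners that rose were named after their values were seen. The study speaks of 3 independent sets, in its methods for the proteomic samples and in a supplementary legend for the RNA sequencing, without saying which libraries form one. 1 marker gene of the cell line is not reported here.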

Additional observations from a re-analysis of the deposited data

Results flagged for a closer look

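WWTR1 was higher in siYAP than in siTAZ by 1.73 on the log2 scale (SE 0.31, edgeR adjusted p = 0.041), with 3 of 3 siYAP libraries above 3 of 3 siTAZ libraries. It is listed here because the effects of the single knockdowns, each taken against the same siControl libraries, differed for this gene by the direct test. WWTR1 is the target of the siTAZ pool. Fits that each left out 1 library gave 1.42 to 2.22, and the call was lost without siYAP library 18 (adjusted p = 0.18), siYAP library 28 (0.16) or siTAZ library 29 (0.14). It was also lost with only the groups compared in the fit (1.74, adjusted p = 0.28).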

How the results depend on the processing

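Of the 8 genes in 8 comparisons, 953 values under other settings kept their side of the threshold, 46 gained a call, 33 lost one and none that was called changed sign. With the fold threshold of the methods 0 of the 6 untargeted genes were called in siYAP, siTAZ, siYAP+TAZ and siYAP+TAZ against either single knockdown. Of all 18858 genes, 18, 40 and 652 were called so in siYAP, siTAZ and siYAP+TAZ. In siYAP+TAZ against siYAP and against siTAZ these were 140 and 147. With DESeq2, 2 were called in siYAP and 2 in siTAZ, where it called 400 and 802 of all genes, against 176 and 383 by edgeR. With consecutive library numbers as a block, 3 were called in siYAP, 2 in siTAZ, 4 in siYAP+TAZ against siTAZ and 3 in siYAP against siTAZ. With only the groups compared in the fit, 0 were called in siYAP and 1 in siYAP+TAZ against each single knockdown. With Control as the reference, 2 were called in siYAP and 2 in siTAZ. Leaving out 1 library gave 0 to 1 in siYAP, 1 to 2 in siTAZ, 2 to 4 in siYAP+TAZ and 1 to 2 in siYAP+TAZ against siYAP or against siTAZ. The lowest counts came without siYAP+TAZ library 20 or siControl library 22 for siYAP+TAZ. The causes were not tested. For the block, the fit of only the groups compared, the Control reference and the fits without 1 library, the share of all genes called is not given here. The groups share no replicate numbers, so the block rests on an assumed order of library numbers. With 3 libraries per group, VGLL3 carries the largest error of the 6 genes (SE 0.24). In every group its lowest value came from the library with the highest number (26 to 30: 124, 124, 81.1, 126 and 71.6 normalized counts). The main fit, without a block, counts this as spread within groups.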

Other observations

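Within the siYAP group, the library with the most YAP1 left (number 23, at 64.0% of the siControl mean) had 800 normalized counts of VGLL4, 1108 of TEAD4 and 5117 of TEAD1. The siYAP libraries with 23.4% and 17.6% of YAP1 had 802 and 822 of VGLL4, 1109 and 1034 of TEAD4 and 5209 and 4467 of TEAD1. VGLL4 in the siYAP group had an SD of 12.04 around a mean of 808, while YAP1 had an SD of 1091 around a mean of 1513. Within the siTAZ group, library 24 had the least WWTR1 (14.1%), with 927 normalized counts of VGLL4, 1370 of TEAD4 and 4303 of TEAD1. Library 29, at 28.8% of WWTR1, had 896, 1186 and 4814 of the same genes, and library 19, at 45.8%, had 845, 1293 and 5686. In both groups VGLL4 was higher the less of the target was left, by little in siYAP, and TEAD1 followed the order of WWTR1 in siTAZ. TEAD4 did not follow the order of the target in either group, and TEAD1 did not follow that of YAP1 in siYAP. These are values of 3 libraries per group, and no relation was tested.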
